A study of Mus musculus with 16 samples.

Results

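The chemokine ligands described here are 10 mouse genes, Ccl2, Ccl5, Ccl7, Ccl20, Cxcl1, Cxcl5, Cxcl10, Cxcl12, Cxcl16 and Cx3cl1, which were looked up by symbol among the 33072 genes of the table. All 10 were found, and each was followed across 4 groups of 4 samples. The groups were 4T1 cells with vehicle, 4T1 cells with CIX, 67NR cells with vehicle and 67NR cells with CIX, where the vehicle was DMSO, CIX is an inhibitor of the lipid-cleaving enzyme cPLA2α (group IVA cytosolic phospholipase A2) given at 15 µM, and exposure lasted 24 h. Both lines are isogenic triple-negative mammary carcinoma cells of a BALB/c mouse, of which 4T1 metastasizes and 67NR does not, and all groups were kept in medium with fetal bovine serum. The labels name no other cell type in the culture, so the values describe mRNA of cultured cells and not of tumor tissue, and neither secreted protein nor attraction of leukocytes was measured.

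Chemokines are small secreted proteins that guide cells along a gradient by binding G protein-coupled receptors, and they are named by the spacing of their first cysteines as CC, CXC or CX3C ligands. CXC ligands with a Glu-Leu-Arg motif, such as Cxcl1 and Cxcl5, attract neutrophils through Cxcr2, whereas Cxcl10 lacks this motif and attracts activated T cells and natural killer cells through Cxcr3. Many of these genes are kept low at rest and are induced through NF-κB or interferon signaling, while Cxcl12 is largely constitutive and typical of stromal cells.

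The total estimated count per sample lay between 21715700 and 29450629, and levels are given as CPM (the count relative to the sample's total after TMM scaling) or, between genes, as TPM (the same after division by transcript length). A level of 3 counts, the smallest taken as detected, corresponded to 0.102 to 0.138 CPM depending on the sample. Within 4T1 cells, samples 3 (vehicle) and 4 (CIX) stood farther from the rest of their groups, with a median absolute log2 distance of 0.242 and 0.247 against 0.131 to 0.191 for the other 4T1 samples, so the results with CIX in 4T1 are also given without them. In 67NR, vehicle sample 13 stood at 0.204 against 0.113 to 0.122 for the other vehicle samples. The numbers of the samples run in 4 sets of 4 that each hold every group once (1 to 4, 5 to 8, 9 to 12 and 13 to 16), but the labels do not say that a set shares a day or a culture. The 7 epithelial markers (Epcam, Cdh1, Esrp1 and 4 keratins) summed to between 3499 and 4466 CPM in 4T1 samples and to between 1.37 and 6.47 CPM in 67NR samples, and none of them reached 1 TPM in all samples of a 67NR group. The label of an epithelial carcinoma was thus borne out by marker genes in 4T1 only. Of 7 fibroblast markers, Pdgfra was expressed in all groups and Pdgfrb and Col1a2 in 67NR only, and Pdgfra held most of their sum. The fibroblast sum was between 49.4 and 60.5 CPM in all 4T1 samples, and in 67NR it moved with CIX, from between 186 and 202 CPM to between 238 and 299 CPM, while Pdgfrb went from between 42.0 and 60.5 CPM to between 28.8 and 35.0 CPM. Among the 8 leukocyte markers, Adgre1 stayed under 3 counts in all 16 samples, Cd3e and Lyz2 did so in 4T1 and Csf1r in 67NR, and Cd68, a lysosomal protein of macrophages that other cells also make, held most of their sum. The leukocyte sum moved with CIX, from between 53.0 and 90.0 CPM to between 133 and 199 CPM in 4T1 and from between 9.27 and 14.2 CPM to between 36.1 and 41.9 CPM in 67NR, while Ptprc, which all leukocytes carry, was at 0.114 to 1.43 CPM in 4T1 samples (3 to 35 counts) and at most 0.136 CPM in any 67NR sample. Lyz2, a lysozyme of myeloid cells, was at 0.768 to 2.01 CPM in 67NR samples. The part of these markers in the chemokine values was not tested.

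Every ligand was expressed in some group, where expressed means at least 1 TPM in all 4 samples. There were 8 expressed ligands in 4T1 with vehicle, 8 in 4T1 with CIX, 8 in 67NR with vehicle and 6 in 67NR with CIX. Ccl2, Cxcl1, Cxcl5 and Cx3cl1 were expressed in all 4 groups. Ccl20 and Cxcl16 were expressed in 4T1 but not in 67NR, and Ccl7 and Cxcl12 were expressed in 67NR but not in 4T1. Ccl5 and Cxcl10 were expressed in 3 groups and dropped out of the expressed class in 67NR with CIX.

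**Figure D1:**
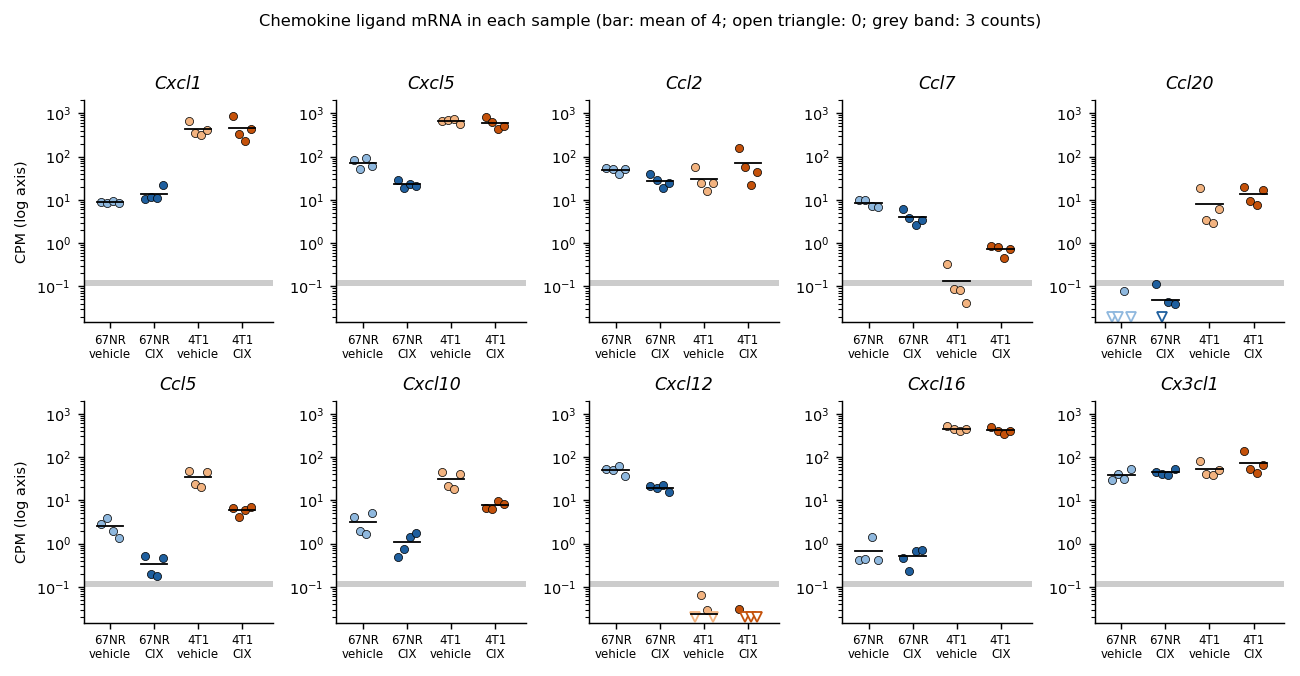
CPM of the 10 ligands in each of the 16 samples on a log axis, with a bar at the mean of 4 samples, open triangles for samples at 0 and a grey band at the CPM of 3 counts. Cxcl16 has a mean of 454 CPM in vehicle treated 4T1 cells and lies at 1.45 CPM or less in each 67NR sample, and Cxcl12 has the opposite pattern.

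Ranked by TPM, vehicle treated 4T1 cells were dominated by CXC ligands. Cxcl5 (515.6 ± 38.3 TPM, SD, n = 4), Cxcl1 (412 ± 153) and Cxcl16 (321 ± 35.2) formed the top, with overlapping ranges between neighbours, and no sample of these 3 overlapped with Ccl5 (76.6 ± 33.3), the next in order. Cx3cl1 (72.5 ± 28.3), Ccl2 (42.0 ± 25.2), Cxcl10 (33.5 ± 15.3) and Ccl20 (10.5 ± 9.98) followed, each overlapping with its neighbour. With CIX the same 3 ligands led, while Ccl5 moved from rank 4 to rank 7 at 12.3 ± 2.54 TPM. In vehicle treated 67NR cells the order was Ccl2 (64.7 ± 7.86 TPM), Cxcl5 (52.2 ± 14.5) and Cx3cl1 (48.9 ± 11.2), again with overlap between neighbours, and then Cxcl12 (18.6 ± 4.57) and Ccl7 (13.2 ± 2.68), which overlapped with each other. Cxcl1, second in 4T1, was at 7.80 ± 0.492 TPM there. With CIX, Cx3cl1 (56.8 ± 9.71 TPM) stood first in 67NR cells and overlapped with no other ligand, ahead of Ccl2 (35.7 ± 9.59).

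The ligand genes lie in clusters that reflect their families (GRCm38). Cxcl5 (chr5:90759360-90761624), Cxcl1 (chr5:90891241-90893115) and Cxcl10 (chr5:92346638-92348889) are on chromosome 5, and Ccl2 (chr11:82035571-82037453), Ccl7 (chr11:82045712-82047525) and Ccl5 (chr11:83525778-83530518) on chromosome 11. Cxcl16 (chr11:70453983-70459984) lies apart from the CC cluster, and Ccl20 (chr1:83116766-83119167), Cxcl12 (chr6:117168535-117181367) and Cx3cl1 (chr8:94772009-94782427) are on chromosomes of their own. Cxcl10 lies inside Art3, Cxcl16 overlaps Zmynd15 and Ccl2 overlaps Gm17268, each on the strand opposite to the ligand. Of the 31-base words in their transcripts, 18.5% of Cxcl16 also occurred in Zmynd15 and 4.47% of Cxcl10 in Art3, and at most 0.871% of any other ligand was shared. The libraries kept the strand, but whether quantification used it is not given in the sources used here. Zmynd15 was at most 6.94 CPM in any 4T1 sample, where Cxcl16 was at least 340.2 CPM.

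RefSeq promoter windows (GRCm38.p6) were held for 5 of the 10 ligands, Ccl20, Cxcl1, Cxcl10, Cxcl12 and Cx3cl1, and 3 motifs were searched on both strands from 250 bases before to 50 bases after the start. A κB match (GGGANNNNCC) occurred in 20.7% of all 32851 windows, an ISRE match (GAAANNGAAA, the element bound by interferon-activated STAT and IRF complexes) in 3.44% and an AP-1 match (TGANTCA) in 7.81%. Cxcl10 had κB matches at -159 and -103 from the start, an ISRE match at -213 and an AP-1 match at -74. Cxcl1 had κB matches at -90 and -71, of which the second overlapped with a further match on the other strand at -70, and Ccl20 had a κB match at -81. None of the 3 motifs was found in the windows of Cxcl12 and Cx3cl1. A match is a run of letters and no evidence of binding. The bases before the start are shown for Cxcl10, which was without overlap in 4T1 with CIX and has a window where Ccl5 has none, for a pair that was high in 4T1 over 67NR (Cxcl1 and Ccl20) and for the ligand that was high in 67NR (Cxcl12), with matches in capitals, from chr5:92348890-92349139 (minus strand), chr5:90891125-90891244, chr1:83116646-83116765 and chr6:117168415-117168534 (all plus strand).
Cxcl10: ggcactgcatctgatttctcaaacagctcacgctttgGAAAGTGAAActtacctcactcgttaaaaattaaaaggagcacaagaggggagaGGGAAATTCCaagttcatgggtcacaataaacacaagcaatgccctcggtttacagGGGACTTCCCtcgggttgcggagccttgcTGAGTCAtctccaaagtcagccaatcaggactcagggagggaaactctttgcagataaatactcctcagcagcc
Cxcl1: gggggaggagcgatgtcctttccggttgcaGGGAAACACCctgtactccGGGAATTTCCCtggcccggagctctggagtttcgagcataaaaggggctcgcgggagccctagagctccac
Ccl20: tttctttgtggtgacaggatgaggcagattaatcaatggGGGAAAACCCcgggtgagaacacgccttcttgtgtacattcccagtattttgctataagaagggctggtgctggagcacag
Cxcl12: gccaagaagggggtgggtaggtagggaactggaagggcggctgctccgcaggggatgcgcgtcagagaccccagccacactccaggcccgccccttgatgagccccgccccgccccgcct

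**Figure D2:**
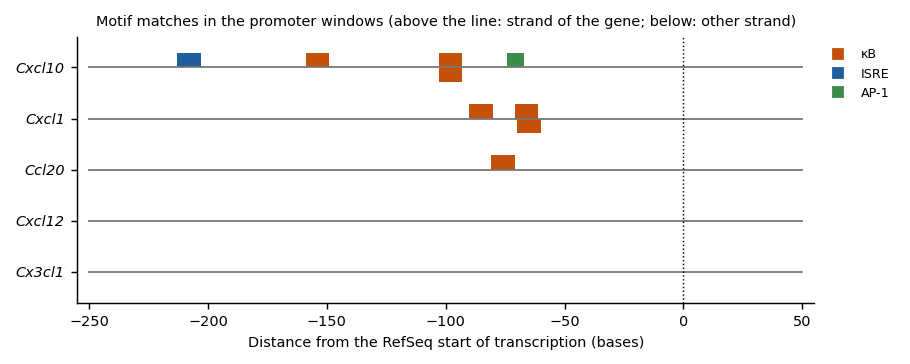
Motif matches in the promoter windows of 5 ligands by distance from the RefSeq start in bases, on the strand of the gene (above the line) and on the other strand (below). Cxcl10 holds all 3 kinds of motif, Cxcl1 and Ccl20 hold κB matches only, and Cxcl12 and Cx3cl1 hold none.

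The first comparison was between vehicle treated 4T1 and 67NR cells, which asks how the ligands differ between a metastatic and a non-metastatic line. Of 6 ligands above the expression filter (TPM below 1 in no more than 3 of the 8 samples), 4 passed an adjusted p of 0.001 in limma-voom and all 4 were higher in 4T1, in a comparison in which 40.0% of the 11040 genes tested passed. The count of ligands was small and is given as a description.

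The neutrophil ligands Cxcl1 and Cxcl5 were higher in 4T1. Cxcl1 was at 669, 353, 309 and 421 CPM in vehicle treated 4T1 samples 3, 7, 11 and 15 and at 8.89, 8.45, 9.30 and 8.65 CPM in 67NR samples 1, 5, 9 and 13. The groups were far apart, by 5.56 ± 0.31 on the log2 scale (SE, adjusted p = 7.14e-07 in limma-voom), with the highest 4T1 level in sample 3. Cxcl5 was at 653, 702, 746 and 580 CPM in the same 4T1 samples and at 82.8, 52.4, 91.8 and 60.0 CPM in the 67NR samples. Both lines expressed Cxcl5, and the difference was 3.24 ± 0.17 (adjusted p = 4.85e-07). Their receptor Cxcr2 was expressed in all 4 groups and was lower in 4T1, at 4.95 ± 0.959 CPM against 11.4 ± 2.34 CPM (SD, n = 4, adjusted p = 0.000481 in limma-voom). This call was kept in 3 of the 8 leave-one-out fits, whose values were between -1.32 and -1.04 on the log2 scale.

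Ccl5 and Cxcl10, a pair of ligands for activated T cells and natural killer cells, were also higher in 4T1. Ccl5 was at 47.4, 23.8, 20.4 and 45.9 CPM in 4T1 with vehicle and at 2.82, 3.84, 1.93 and 1.37 CPM in 67NR with vehicle. The difference of 3.77 ± 0.49 (log2, SE, adjusted p = 0.000118 in limma-voom) was called whichever sample was left out. Cxcl10 was at 45.9, 21, 18.3 and 40.6 CPM in 4T1 and at 4.13, 1.94, 1.71 and 5.10 CPM in 67NR. Its difference of 3.32 ± 0.52 (adjusted p = 0.000356 in limma-voom) was called in 5 of 8 leave-one-out fits. In 4T1, samples 3 and 15 were about alike for both genes and above samples 7 and 11.

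The other 4 ligands were below the filter in this comparison, because each was under 1 TPM in all 4 samples of one of the lines, and their values are given as a description with no test. Cxcl16, a membrane-anchored ligand of Cxcr6 that also acts as a scavenger receptor, was at 512, 455, 406 and 443 CPM in 4T1 with vehicle and at 0.424, 0.446, 1.45 and 0.423 CPM in 67NR with vehicle. Cxcl12, the ligand of Cxcr4 and Ackr3, was at 51.9, 50.5, 62.5 and 35.7 CPM in 67NR with vehicle and at most at 0.0645 CPM, under 3 counts, in each 4T1 sample. These were opposite patterns of presence and near absence, with differences of 8.66 and -6.57 in mean log2(CPM + 0.5) (4T1 minus 67NR), and the pseudocount makes both smaller than the ratio of the levels. Ccl20, the ligand of Ccr6, was at 18.9, 3.38, 2.93 and 6.27 CPM in 4T1 and at or below 0.0793 CPM in 67NR, a difference of 3.64. Ccl7, a monocyte attractant encoded next to Ccl2, was at 9.76, 9.83, 7.40 and 6.78 CPM in 67NR and at 0.335, 0.0851, 0.0828 and 0.0407 CPM in 4T1, a difference of -3.82. In all 4 genes the lines did not overlap, which follows in large part from their being low in all samples of one line, and non-overlap was seen in 61.6% of the genes tested in this comparison. Without the filter 8 of the 10 ligands passed the adjusted p of 0.001 in limma-voom, where 6461 of 22724 genes passed. For these 4, near absence in a line largely fixes that outcome, so it is not read as a test.

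Ccl2 and Cx3cl1 did not pass. Ccl2, which attracts monocytes through Ccr2, was at 56.8, 24.1, 15.7 and 24.1 CPM in 4T1 with vehicle and at 54.9, 51.2, 40.1 and 52.3 CPM in 67NR with vehicle. Sample 3 of 4T1 lay above all 67NR samples and the other 3 lay below, and the difference was -0.88 ± 0.33 (log2, SE, adjusted p = 0.0373 in limma-voom). Without sample 3 it was -1.21 and passed at an adjusted p of 0.000585. Cx3cl1, a membrane-anchored ligand that is shed by Adam10 and Adam17, was at 82.9, 40.5, 38.2 and 50.8 CPM in 4T1 and at 30.1, 40.6, 31 and 51.5 CPM in 67NR, with an adjusted p of 0.194.

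The second comparison was between CIX and vehicle in 4T1, the question of the sequencing experiment. Of 8 ligands above the filter, 1 passed, Ccl5, and it was lower with CIX. In this comparison 9.34% of 11659 genes passed, and 3.99% passed with a lower level after CIX. The median log2 fold change of the 8 ligands was -0.11, against -0.0069 over all genes tested, with 3 above 0 and 5 below.

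Ccl5 was at 47.4, 23.8, 20.4 and 45.9 CPM with vehicle and at 6.48, 4.22, 5.95 and 7.12 CPM in CIX samples 4, 8, 12 and 16. The highest CIX sample lay below the lowest vehicle sample, and Ccl5 fell by 2.47 ± 0.36 on the log2 scale, or 5.55-fold (adjusted p = 0.00074 in limma-voom). The size kept between -2.69 and -2.28 when a sample was left out, but the call at 0.001 was kept in only 1 of these 8 fits, the one without vehicle sample 11, and the adjusted p reached 0.00313. Without samples 3 and 4 it was -2.32 with an adjusted p of 0.00337.

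Cxcl10 was close behind. It was at 45.9, 21, 18.3 and 40.6 CPM with vehicle and at 6.64, 6.44, 9.50 and 8.33 CPM with CIX. Here, too, the groups did not overlap, but the difference of -1.94 ± 0.35 (log2, SE) missed the threshold with an adjusted p of 0.00218 in limma-voom. It passed with edgeR (adjusted p = 0.000983), with DESeq2 (adjusted p = 4.96e-10), in a common fit of all samples and with quality weights. It did not pass with other size factors, library size only, other filters or log2(TPM + 1), nor in any of the 8 leave-one-out fits (-2.17 to -1.72, adjusted p of 0.0012 to 0.00815), and without samples 3 and 4 it was -1.64 with an adjusted p of 0.00818. Ccl5 and Cxcl10 were the only ligands of the 8 without overlap between the groups, where 40.0% of all genes tested had none. In vehicle treated samples both genes were high in samples 3 and 15 and low in samples 7 and 11. With CIX the corresponding samples 4 and 16 were again the highest for Ccl5, whereas Cxcl10 was highest in sample 12.

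The neutrophil ligands Cxcl1 and Cxcl5 showed no such difference. Cxcl1 was at 848, 336, 225 and 445 CPM in the CIX samples, a range that enclosed that of the vehicle samples (309 to 669 CPM), and the log2 fold change was -0.05 ± 0.38 (adjusted p = 0.93 in limma-voom), with the sign changing between tests, and -0.15 without samples 3 and 4 (adjusted p = 0.627). Cxcl5 was at 843, 625, 437 and 507 CPM with CIX against 580 to 746 CPM with vehicle, with a log2 fold change of -0.21 ± 0.19 (adjusted p = 0.39 in limma-voom). Cxcl16 was at 507, 399, 340 and 399 CPM against 406 to 512 CPM, with -0.17 ± 0.13 (adjusted p = 0.313 in limma-voom). Without samples 3 and 4, Cxcl5 was at -0.38 ± 0.15 and Cxcl16 at -0.20 ± 0.09, with adjusted p of 0.0851 and 0.115 in limma-voom.

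Ccl2, Ccl20 and Cx3cl1 had higher means with CIX, but the groups overlapped and none passed. Ccl2 was at 156, 58.5, 22.3 and 44.6 CPM with CIX (1.00 ± 0.58 on the log2 scale, adjusted p = 0.194 in limma-voom). Ccl20 was at 20.1, 9.66, 7.64 and 17.2 CPM (1.07 ± 0.55, adjusted p = 0.143). Cx3cl1 was at 134, 53.6, 43.7 and 65.5 CPM (0.39 ± 0.36, adjusted p = 0.404). In each of these genes sample 3 was highest and sample 11 lowest of the vehicle samples, and sample 4 was highest and sample 12 lowest of the CIX samples. The same holds for Cxcl1 and Cxcl16, as the plot of deviations from the group median shows. Within each of the 4 sets of consecutive numbers, the CIX sample was above the vehicle sample for Ccl2, Ccl20 and Cx3cl1 and below it for Cxcl16. The labels state no pairing, so this is a description only. The share of all genes with such a common direction was not computed. Without samples 3 and 4 the log2 fold change was 0.87 for Ccl2, 1.43 for Ccl20 and 0.32 for Cx3cl1, with adjusted p of 0.0967, 0.0248 and 0.169 in limma-voom. Samples 3 and 4 also held the highest levels of the protease Mmp9 (128 and 151 CPM). What set these samples apart was not tested.

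**Figure D3:**
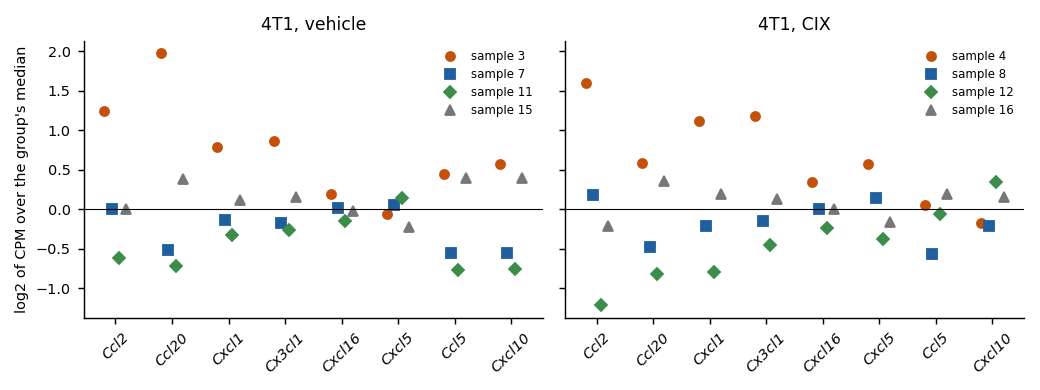
log2 of each sample's CPM over the median of its group for 8 ligands in 4T1 cells, with vehicle (left) and CIX (right). Samples 3 and 4 lie highest for Ccl2, Ccl20, Cxcl1, Cxcl16 and Cx3cl1, and the spread of Ccl5 and Cxcl10 is wider with vehicle than with CIX.

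Both ligands below the filter in 4T1 were rare. Ccl7 had 8, 2, 2 and 1 counts in the vehicle samples and 21, 19, 13 and 18 counts in the CIX samples, which is 0.335, 0.0851, 0.0828 and 0.0407 CPM against 0.859, 0.831, 0.460 and 0.741 CPM. Every CIX sample was above every vehicle sample, with a difference of 0.95 in mean log2(CPM + 0.5). In 3 of 4 vehicle samples it was under 3 counts, so that neither a fold nor a test is given. Cxcl12 was under 3 counts in all 8 samples and was not tested.

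The third comparison was between CIX and vehicle in 67NR. None of 8 ligands above the filter passed an adjusted p of 0.001 in limma-voom, where 0.389% of 11560 genes passed, and edgeR called none either. At an unadjusted p under 0.05 there were 7 of the 8, against 32.8% of all genes, and at an adjusted p under 0.05 there were 5, against 17.8%. DESeq2 called 4, namely Ccl2, Ccl7, Cxcl5 and Cxcl12, against 9.00% of all genes. The groups did not overlap in 6 of the 8 ligands, 5 of them lower with CIX, against 23.3% of all genes tested. The median log2 fold change of the 8 was -1.25, against -0.0063 over all genes tested.

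Cxcl5 was at 82.8, 52.4, 91.8 and 60.0 CPM with vehicle and at 28.1, 18.8, 23.4 and 21.4 CPM in CIX samples 2, 6, 10 and 14. No CIX sample reached the lowest vehicle sample, with a log2 fold change of -1.64 ± 0.20 (SE, adjusted p = 0.00171 in limma-voom). Cxcl12 was at 51.9, 50.5, 62.5 and 35.7 CPM with vehicle and at 21.4, 18.8, 22.2 and 15.9 CPM with CIX, which was again without overlap and gave -1.36 ± 0.18 (adjusted p = 0.00199 in limma-voom). Both passed the threshold with DESeq2, when all 16 samples shared a fit and with sample quality weights. Neither passed with edgeR, other size factors, library size only, other filters or log2(TPM + 1). Neither passed in any of the 8 leave-one-out fits, with adjusted p in limma-voom of up to 0.0078 for Cxcl5 and 0.00925 for Cxcl12.

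Ccl5, Ccl7 and Ccl2 had lower levels with CIX without passing the threshold. Ccl5 was at 2.82, 3.84, 1.93 and 1.37 CPM with vehicle and at 0.522, 0.199, 0.181 and 0.468 CPM with CIX, a log2 fold change of -2.79 ± 0.48 (adjusted p = 0.00625 in limma-voom). Its CIX samples held 14, 5, 4 and 11 counts, so that the size rests on few reads. Ccl7 was at 9.76, 9.83, 7.40 and 6.78 CPM against 6.06, 3.83, 2.59 and 3.40 CPM (-1.13 ± 0.24, adjusted p = 0.0147). Ccl2 was at 54.9, 51.2, 40.1 and 52.3 CPM against 38.7, 28.1, 18.8 and 25.1 CPM (-0.89 ± 0.20, adjusted p = 0.0175). In none of these 3 genes did the groups overlap.

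The remaining ligands above the filter had an adjusted p over 0.05. Cxcl10 was at 4.13, 1.94, 1.71 and 5.10 CPM with vehicle and at 0.486, 0.756, 1.41 and 1.75 CPM with CIX, where a single CIX sample reached above the lowest vehicle sample, and the log2 fold change was -1.57 ± 0.52 (adjusted p = 0.0691 in limma-voom). Art3, the gene around Cxcl10, was between 0.362 and 16.1 CPM in vehicle treated 67NR samples and at most 0.191 CPM with CIX, and its part in the Cxcl10 values was not tested. Cxcl1 was at 8.89, 8.45, 9.30 and 8.65 CPM with vehicle and at 10.5, 11.4, 10.8 and 21.6 CPM with CIX, higher without overlap (0.53 ± 0.23, adjusted p = 0.144 in limma-voom). Cx3cl1 was at 30.1 to 51.5 CPM with vehicle and at 38.3 to 54.2 CPM with CIX (adjusted p = 0.45 in limma-voom). Cxcl16 was at 0.235 to 0.701 CPM with CIX and overlapped with vehicle (exact two-sided permutation p = 0.771 for mean log2(CPM + 0.5), where 4 against 4 samples allow no p under 0.0286), and Ccl20 reached 3 counts in 1 of the 8 samples and was not tested. Without vehicle sample 13 none of the 8 passed either, and the log2 fold changes were -1.70 for Cxcl5, -1.50 for Cxcl12, -3.01 for Ccl5 and -1.30 for Cxcl10.

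**Figure D4:**
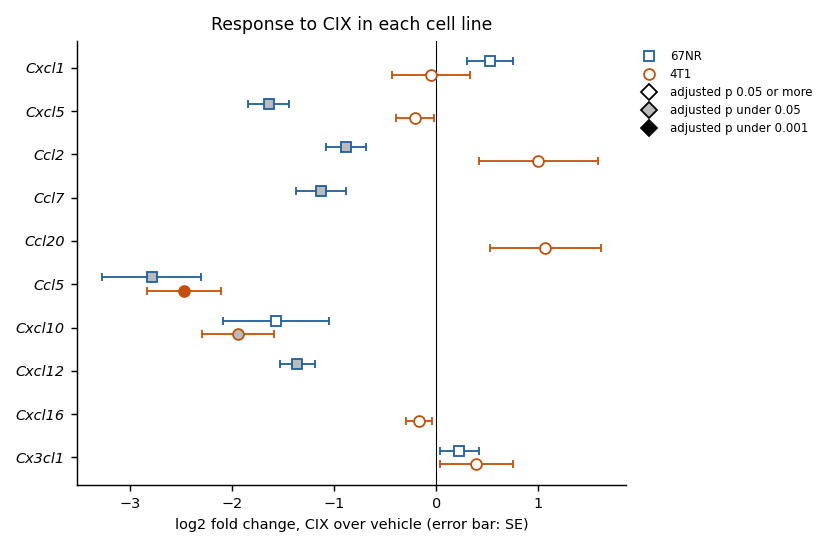
log2 fold change of CIX over vehicle with its SE for the ligands above the filter in 67NR (squares) and 4T1 (circles), filled by adjusted p in limma-voom. Ccl5 and Cxcl10 lie to the left in both lines, Cxcl5 lies at -1.64 in 67NR and at -0.21 in 4T1, and Ccl2 lies on opposite sides.

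The fourth comparison asked whether CIX acted differently in 4T1 and in 67NR, using the interaction of line and treatment in a fit of all 16 samples. Of 10 ligands tested, 1 passed, Ccl7, where 7.86% of 12605 genes passed. Ccl7 entered this fit through its level in 67NR alone. In 4T1 it had at most 21 counts in any sample and under 3 in 3 of the 4 vehicle samples, so that the fitted size depends on the count added before the logarithm and is not read as a fold. All CIX samples were above all vehicle samples in 4T1 and below them in 67NR. The call (adjusted p = 0.000557 in limma-voom) was lost in 10 of 16 leave-one-out fits and without samples 3 and 4 (adjusted p = 0.00114), and it is given as a description of direction only.

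Cxcl5 came next with a difference of 1.43 ± 0.31 (adjusted p = 0.00257 in limma-voom), lower with CIX in 67NR and within the spread in 4T1, and it passed with DESeq2 and with sample quality weights. Ccl2 differed by 1.88 ± 0.68 (adjusted p = 0.0483), with higher mean levels under CIX in 4T1 and lower levels in 67NR. Within the sets of consecutive numbers, the CIX sample was above the vehicle sample in 4 of 4 sets of 4T1 and below it in 4 of 4 sets of 67NR. In 67NR this follows from the groups not overlapping. Pairing by set was not established, so these counts are a description and no support for a difference. For Ccl5 and Cxcl10 the differences were 0.32 and -0.37, with adjusted p of 0.821 and 0.767 in limma-voom, and the call of Ccl5 in 4T1 alone is thus no evidence that the lines differed in it. Cxcl1 and Cx3cl1 were also not called. Ccl20, Cxcl12 and Cxcl16 met the filter through the line that expresses them, so that the missing call says nothing about their response in the other line. Cxcl12 was called on log2(TPM + 1), but it had at most 1 count in any 4T1 sample. That call restates its change in 67NR and is no test of a difference between the lines.

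The 28 other chemokine ligands of the mouse that were looked up were mostly silent, with 7 expressed in some group and 13 under 3 counts in every sample. In 4T1, 4 of them were above the filter and 2 passed, both lower with CIX, where 3.99% of all genes passed with a lower level. Cxcl3, another Cxcr2 ligand beside Cxcl1 and Cxcl5, was at 40.4 to 73.7 CPM with vehicle and at 15.6 to 22.9 CPM with CIX and fell by 1.51 ± 0.21 on the log2 scale (adjusted p = 0.000658 in limma-voom), whereas it was at most 0.262 CPM in any 67NR sample. Ccl25, a ligand of Ccr9, was at 6.01 to 7.64 CPM with vehicle and at 2.43 to 3.54 CPM with CIX and fell by 1.21 ± 0.18 (adjusted p = 0.000901 in limma-voom), and it was at 7.41 to 9.89 CPM in 67NR. Leaving out a sample kept the call of Cxcl3 in 1 of 8 fits and that of Ccl25 in 0, with adjusted p of up to 0.00319 and 0.00424. Ccl17, a ligand of Ccr4, was at 0.124 to 0.413 CPM with vehicle and at 0.448 to 0.821 CPM with CIX, higher without overlap but not called (adjusted p = 0.0801 in limma-voom). Cxcl9, which binds Cxcr3 as Cxcl10 does, was below the filter. It was at 2.57 to 4.61 CPM with vehicle and at 0.0356 to 0.506 CPM with CIX in 4T1, without overlap, and both were chosen for mention after their values were seen. In 67NR none of the 2 tested passed in limma-voom. Ccl9 was below the filter there, at 1.72 to 2.89 CPM with vehicle and at 0.284 to 0.627 CPM with CIX. Its groups did not overlap, as in 23.3% of all genes tested, and it too was chosen after its values were seen. In the comparison of lines, in which 40.0% of all genes passed, 1 of 2 passed, Ppbp, at 2.29 to 3.41 CPM in 67NR and 0.612 to 1.23 CPM in 4T1 (adjusted p = 0.000213 in limma-voom, with a call in 5 of 8 leave-one-out fits).

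Receptors for these ligands were scarce in both lines. Of 18 chemokine receptors only Cxcr2, Cxcr3 and Ccr10 were expressed in some group, and none of those tested passed with CIX in either line in limma-voom, with adjusted p of 0.0899 or more. Ccr6, the receptor of Ccl20, had no count in any sample, Cxcr4, the receptor of Cxcl12, had at most 2 counts, and Ccr2, the receptor of Ccl2 and Ccl7, at most 8. Cxcr3, the receptor of Cxcl10, was at 4.03 to 20.6 CPM with vehicle and at 3.63 to 16.4 CPM with CIX in 4T1, highest in samples 3 and 4, and had at most 1 count in 67NR. Among 5 atypical receptors, which bind chemokines without signaling through G proteins, Ackr3 was expressed in all groups and was higher in 4T1 (1.32 ± 0.21 on the log2 scale, adjusted p = 0.000358 in limma-voom, with a call in 5 of 8 leave-one-out fits). Ccrl2 was at 11.2 to 12.7 CPM in 4T1 with vehicle and at 0.599 to 3.30 CPM with CIX. It fell by 3.30 ± 0.42 on the log2 scale (adjusted p = 0.000375 in limma-voom), a call that was kept in 1 of 8 leave-one-out fits and missed with edgeR (adjusted p = 0.00138). Of 9 proteases that cut or shed chemokines, 4 were tested with CIX in each line and none passed, where 9.34% of all genes in 4T1 and 0.389% in 67NR did. Adam10 and Adam17, which release Cx3cl1 and Cxcl16 from the membrane, were expressed in all groups, and between the lines Mmp9 was higher in 4T1 (5.47 ± 0.53 on the log2 scale) and Adam10 was lower (-0.63 ± 0.07, adjusted p = 1.77e-05 and 6.3e-05 in limma-voom).

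Genes of the pathways that act on these ligands, inhibitors among them, were examined as lists. Of the NF-κB pathway, none of 15 genes passed in 4T1 with CIX in limma-voom and none of 14 in 67NR, with medians of -0.02 and 0.12, where 9.34% and 0.389% of all genes passed. At an adjusted p under 0.05 there were 3 of the 15 in 4T1, against 4982 of all 11659 genes tested. The groups did not overlap in 5 of the 15, against 40.0% of all genes. Nfkbie was closest to the threshold at -0.95 (adjusted p = 0.00127 in limma-voom). Between the lines 10 of 14 passed, all higher in 4T1, where 20.4% of all genes passed with a higher level in 4T1. Among them were the inhibitors Nfkbie (4.03 ± 0.21) and Tnfaip3 (3.22 ± 0.30), the nuclear cofactor Nfkbiz (2.12 ± 0.15) and the subunit Rel (1.44 ± 0.12). Of the 7 interferon-related factors that act on Cxcl10, 3 passed in 4T1 with CIX, where 9.34% of all genes passed. Irf7, at 33.2 to 81.3 CPM with vehicle and 5.33 to 9.70 CPM with CIX, fell by 2.76 ± 0.33 (adjusted p = 0.000276 in limma-voom), and Irf9, at 50.4 to 86.2 CPM and 19.3 to 22.3 CPM, fell by 1.69 ± 0.17 (adjusted p = 0.00014 in limma-voom). Irf3, at 13.6 to 17.7 CPM and 32.8 to 45.3 CPM, rose by 1.28 ± 0.15 (adjusted p = 0.000297 in limma-voom). Leaving out a sample kept these calls in 5, 8 and 4 of 8 fits. Without samples 3 and 4, Irf3 still passed. Irf7 (-2.84, adjusted p = 0.00215), Irf9 (-1.61, 0.00113), Cxcl3 (-1.63, 0.00158) and Ccl25 (-1.22, 0.00196) did not pass in that smaller fit in limma-voom, although their log2 fold changes stayed about as large. In 67NR none of 6 passed in limma-voom, and Irf7 was at 0.651 to 1.44 CPM there, below the filter. The responses of Irf3 and Stat2 differed between the lines, by 1.25 ± 0.22 and -1.40 ± 0.22 (adjusted p = 0.000525 and 0.000253 in limma-voom). The call of Irf3 was kept in 8 of 16 leave-one-out fits, and that of Stat2 in all 16 but not without samples 3 and 4 together (adjusted p = 0.00101). Between the lines 4 of these 7 factors passed as higher in 4T1, against the 20.4% of all genes, with Irf7 by 5.61 ± 0.53, Irf9 by 3.20 ± 0.22 and Stat2 by 1.96 ± 0.17 among them, and Irf3 was lower (-1.89 ± 0.13).

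**Figure D5:**
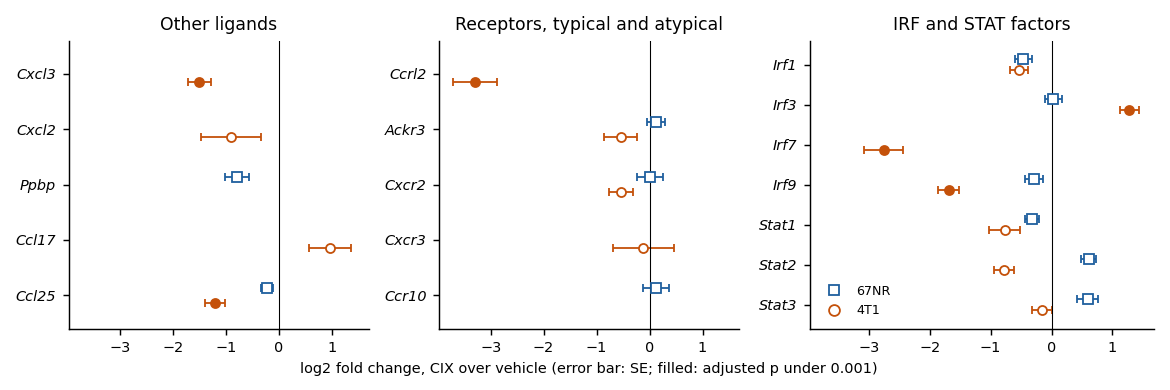
log2 fold change of CIX over vehicle with its SE in 67NR (squares) and 4T1 (circles) for the other ligands, the receptors and the IRF and STAT factors above the filter, filled where the adjusted p in limma-voom was under 0.001. Filled points are in 4T1 only, and Cxcl3, Ccl25, Ccrl2, Irf7 and Irf9 lie to the left and Irf3 to the right.

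Of 19 cytokines and receptors that act upstream of these ligands, 14 were tested in 4T1 and 1 passed with CIX, a share no higher than the 9.34% of all genes. It was Ifnar2, a subunit of the receptor for type I interferon (higher by 1.34 ± 0.14, adjusted p = 0.000161 in limma-voom, and in all 8 leave-one-out fits). In 67NR none of 13 passed in limma-voom. Between the lines, of 12 tested, 3 passed as higher in 4T1 and 1 as lower, where 40.0% of all genes passed. The higher were Ifngr2 (2.16 ± 0.11), Il17ra (1.81 ± 0.14) and Ifnar2 (1.03 ± 0.13), and the lower was Il17rc (-2.09 ± 0.30). Ifng was at 0 in all 8 samples of 4T1 and at 0.539 to 1.48 CPM in 67NR. Of 9 genes that control the decay of chemokine mRNA, none passed with CIX in either line in limma-voom, which at 9.34% and 0.389% of all genes says little of so few genes, and between the lines Zc3h12a (2.73 ± 0.26) and Rc3h2 (1.24 ± 0.20) were higher and Zfp36l2 (-1.43 ± 0.11) was lower in 4T1.

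For the 3 ligands with the highest mean level, the genes with the most similar profile were sought among 12605 genes by the root mean square distance of centred log2(CPM + 0.5) over the 16 samples. For Cxcl16 these were Tns4 (0.18), Lad1 (0.18) and Spint2 (0.24), against a median of 4.35 over all genes, and each of them was at 216 CPM or more in every 4T1 sample and at 0.942 CPM or less in every 67NR sample. For Cxcl5 they were Fgd3 (0.40), Ntn1 (0.49) and Vcam1 (0.51), against a median of 2.10. For Cxcl1 they were Megf6 (0.30), Lypd3 (0.32) and Kdm4dl (0.39), against a median of 2.67. These distances describe mainly the step between the lines, which all 16 samples share.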

How the data were processed

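RNA from 4T1 and 67NR cells exposed to vehicle or to CIX (15 µM, 24 h) was sequenced, with 4 biological replicates in each of 4 groups. The authors ran salmon (version 0.12 in the submitters' processing notes) on the Ensembl annotation of GRCm38 and aggregated transcripts with tximport, and the deposited table holds estimated counts of 33072 genes that are not normalized. The scaling used in tximport is not given in the sources used here. Single low values had a median of 0.984 irrespective of gene length (0.978 in the shortest and 0.985 in the longest of 1759 single-transcript genes split by length), and the deposited estimated counts were therefore treated as read counts. Samples were grouped by their labels, and all columns were mapped.

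Values were rounded to integers. TPM was approximated from the mean transcript length in GENCODE M21, which held 32832 of the genes. The filter of the study was used, which drops a gene if its TPM is under 1 in over 3 samples (for the interaction, only if this held in both lines). Differences were tested with limma-voom after TMM scaling (limma 3.58.1, edgeR 4.0.16, R 4.3.3), and a gene was called if its p-value, adjusted by Benjamini-Hochberg over all genes of the comparison, was under the study's limit of 0.001. Fits of 8 samples compared CIX with vehicle within a line and the lines with vehicle only, and a fit of 16 samples compared the responses. Ligands outside the filter were compared by mean log2(CPM + 0.5), and an exact permutation test is given only for Cxcl16 in 67NR, where all 8 samples held 3 counts and both groups were low.

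The ligands and the other gene lists were chosen with earlier results of these data known, so no count over a list is independent evidence. All ligands were named. From the other lists, genes called in a comparison were named, at most 4 per list and comparison by size of change, along with receptors of the ligands. The cell type markers are given by their levels, and their calls are not listed. As alternatives, results were recomputed with edgeR (quasi-likelihood), with DESeq2 1.42.0 (Wald test), with DESeq2's size factors, with library size only, with no filter, with filterByExpr, in a common fit of 16 samples, with sample quality weights, at a threshold of 0.05, with limma on log2(TPM + 1) and without each sample in turn. Leaving out samples 3 and 4 together and a block on sets of 4 consecutive sample numbers were added after the data were seen. Shared words of 31 bases were counted over the transcripts of all genes. Totals of 21715700 to 29450629 per sample put 3 counts at 0.102 to 0.138 CPM, a floor for counting error alone, as molecules were not tagged. No pair of replicates was the same library read again, since the chi-square per gene was at least 16.7 for each pair. This does not show that the replicates came from separate cultures. The RT-qPCR, migration and protein measurements of the study were not analysed here.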

Additional observations from a re-analysis of the deposited data

Results flagged for a closer look

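Among 37 combinations of ligand and group with detected counts, 3 held a sample whose gap to the others exceeded Dixon's 95% critical value for 4 samples, and chance flags about 1 in 20 such groups. Ccl7 was at 0.335 CPM in 4T1 vehicle sample 3 and at 0.0407 to 0.0851 CPM in the other samples of its group. Cxcl1 was at 21.6 CPM in 67NR CIX sample 14 and at 10.5 to 11.4 CPM in the others. Cxcl16 reached 1.45 CPM in sample 9 of the vehicle treated 67NR cells, where the others held 0.423 to 0.446 CPM, and sample 9 also held the highest sum of epithelial markers of its group, 6.47 CPM, where these markers summed to at least 3499 CPM in every 4T1 sample.

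In the interaction test, the fitted log2 response of Ccl7 to CIX was higher in 4T1 than in 67NR by 3.60. All 4 CIX samples were above the vehicle samples in 4T1 and below them in 67NR. The gene had under 3 counts in 3 of the 4 vehicle samples of 4T1 and met the filter through 67NR alone, so the size of this difference depends on the added count and is no measure of a fold. The call was lost in 10 of 16 leave-one-out fits and without samples 3 and 4 (adjusted p = 0.00114 in limma-voom).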

How the results depend on the processing

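No number is shared between groups, so a replicate block on the sets of 4 consecutive numbers was tried after the data were seen. The deviations of vehicle and CIX samples of a set correlated over genes at 0.39, 0.063, 0.31 and 0.18 in 4T1 and at -0.061 to 0.071 in 67NR, and those of the lines at -0.26 to 0.19, so that pairing by set was not established. With this block 1 ligand (Ccl5) and 1115 genes were called in 4T1, and 4 ligands and 2983 genes between the lines. In 67NR 0 ligands and 0 genes were called in limma-voom, with 7 and 3899 at an unadjusted p under 0.05. For the difference between responses (block within each line), Ccl2 (1.97 ± 0.22, adjusted p = 0.000235 in limma-voom) was called and Ccl7 (adjusted p = 0.00137) was not, and Ccl20 changed sign (-0.00223). Stat2 also lost its call with this block (-1.41, adjusted p = 0.00143 in limma-voom). In 4T1, the number of ligands called with CIX went from 1 to 2 (Ccl5 and Cxcl10) with edgeR, DESeq2, a common fit, quality weights or a threshold of 0.05, to 0 without samples 3 and 4, and to between 0 and 1 when a sample was left out. All genes called went from 1089 to 3096 with DESeq2, 2679 in a common fit, 2523 with quality weights, 4982 at 0.05 and between 287 and 1051 when a sample was left out. In 67NR, 0 ligands became 4 with DESeq2, 2 in a common fit, 2 with quality weights and 5 at 0.05, and 45 genes became 1040, 151, 247 and 2054, 27 on log2(TPM + 1) and between 0 and 70 when a sample was left out. For the difference between responses, 1 ligand became 2 with DESeq2, quality weights or log2(TPM + 1), 3 at 0.05, 0 without samples 3 and 4 and between 0 and 2 when a sample was left out, and 991 genes became 1980 with DESeq2, 1916 with quality weights, 3704 at 0.05 and between 650 and 1066. The ligand added on log2(TPM + 1) was Cxcl12, whose call there restates its change in 67NR. Between the lines, 4 ligands became 8 without a filter or with filterByExpr and between 4 and 7 when a sample was left out, and 4420 genes became 7442 at 0.05. All genes called there were 6461 of 22724 without a filter and 6244 of 13770 with filterByExpr. On log2(TPM + 1) the share of lower genes among those called went from 42.7% to 54.3% in 4T1 and from 38.85% to 52.74% for the difference between responses.

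Changes of sign were confined to ligands far from the threshold. They were Cxcl1 in 4T1 (0.0639 with edgeR, 0.0576 with DESeq2, 0.00876 without a filter, -0.40 to 0.25 when a sample was left out) and, for the difference between responses, Ccl20 (-0.36 with edgeR, -0.55 with DESeq2, -0.42 to 0.71 when a sample was left out), Cx3cl1 (-0.0354 with quality weights, -0.16 to 0.40), Ccl5 (-0.64 on log2(TPM + 1)) and Cxcl16 (-0.14 on log2(TPM + 1), -0.30 to 0.30). In 67NR and between the lines no ligand changed sign under these alternatives. The causes were not tested. Depth limits Ccl7 and Cxcl12 in 4T1 and Ccl20 in 67NR, which were at or under 3 counts in some or all samples. Ccl5 in 67NR with CIX was close to that floor, at 4 to 14 counts.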
